A study of Mus musculus with 5 samples.

Results

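The replication-dependent histone genes supply the core and linker histones that package newly copied DNA. They were chosen here as every gene whose symbol starts with Hist1h, Hist2h, Hist3h or Hist4h, which gave 67 of the 27726 genes common to the 5 deposited count matrices. By histone class they comprised 6 H1 genes, 18 H2A genes, 18 H2B genes, 12 H3 genes and 13 H4 genes. RNA was read from single group 2 innate lymphoid cells (ILC2s), sorted from lungs of female C57BL/6 wild-type mice, 4 to 8 weeks old, as CD45+ Lin- ST2+ CD127+ Thy1.2+ cells, and 5 libraries were made with 10x Genomics 3′ chemistry. The naïve library came from mice without a tumour. The 2 ta-non-activated libraries came from mice carrying subcutaneous TC1 tumours, a murine lung tumour line that expresses the human papillomavirus genes E6 and E7 together with activated Ha-ras, and their ILC2s were taken fresh at week 2 and at week 3 of tumour growth. The 2 ta-activated libraries came from tumour-bearing mice of the same weeks, and their ILC2s were first cultured for 7 days with rhIL-2, rmIL-33 and TSLP at 10 ng/mL each. Each library pooled cells of 5 mice that cannot be separated again, so a library is 1 sample and the week is the same thing as the replicate. Culture and cytokines cannot be told apart in the ta-activated group, nor library and condition in the naïve group. Values of a tumour group are given as a pair, week 2 before week 3.

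ILC2s are tissue-resident lymphocytes without antigen receptors that answer IL-33 and TSLP with type 2 cytokines, and they divide when activated. DNA is wrapped around octamers made of H2A, H2B, H3 and H4, and the linker histone H1 binds where the DNA enters and leaves. Cells need a full new set of histones each time they copy their genome, and the genes for it lie in clusters of short, mostly intronless genes that are switched on together around S phase through the coactivator NPAT. Their mRNAs end in a conserved stem-loop that is bound by SLBP, in place of the poly(A) tail of other mRNAs, and are degraded once DNA replication stops. Some members also make polyadenylated transcripts, often from a signal downstream of the stem-loop, and these are made outside S phase too. A 3′ platform primes on poly(A), so it records such transcripts and only a part of the stem-loop mRNAs.

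In the GENCODE M21 annotation, on mouse build GRCm38, 62 of the 67 members had no intron. The 54 Hist1 members lay on chromosome 13 between 21715763 and 23934851, the 10 Hist2 members on chromosome 3 between 96219865 and 96270132, the 2 Hist3 members on chromosome 11 between 58948920 and 58956830, and the single Hist4 member on chromosome 6 between 136801553 and 136804415. The annotated transcripts of 35 members held the histone stem-loop, 6 paired bases around a loop of 4 bases, in 1 of 3 spellings, against 137 of 21901 protein-coding genes (0.626%). The stretches below show it with its 16 bases in capitals and up to 5 bases on either side. They are given for the most abundant H2A and H4 members, for the abundant H1 member that did not pass the test between cycling and other cells, for the single member that was lower in cycling cells, and for an H4 member with the rarest spelling.
Hist1h2ap: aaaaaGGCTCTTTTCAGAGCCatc
Hist1h1c: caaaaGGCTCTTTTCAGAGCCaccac
Hist3h2a: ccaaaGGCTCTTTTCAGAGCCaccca
Hist1h4d: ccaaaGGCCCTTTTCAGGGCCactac
Hist1h4j: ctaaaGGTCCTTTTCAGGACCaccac

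The first of the 3 spellings was found in 26 members of all classes but H4, the spelling of Hist1h4d in 7 H4 members, and that of Hist1h4j in 2. Each of these stretches lies within a single exon, at chr13:21833026-21833049 on the minus strand for Hist1h2ap, chr13:23739507-23739532 on the plus strand for Hist1h1c, chr11:58955167-58955192 on the plus strand for Hist3h2a, chr13:23581945-23581970 on the plus strand for Hist1h4d and chr13:21735432-21735457 on the plus strand for Hist1h4j. What follows the stem-loop differed more than the stem-loop itself. The longest annotated transcript went on for 3 bases after it in Hist1h2ap, 151 in Hist1h2ae, 770 in Hist1h4d, 840 in Hist1h1c and 1643 in Hist3h2a. A further 11 members were annotated with their coding part only. Many members are near-identical copies: in 38 of them less than 50% of the 31-base words of the transcript were found in no other member, among them Hist1h2ap with 6.64%. The values of such a gene could include reads of its copies or miss reads that it shares with them. By contrast, Hist1h1b (96.9%), Hist1h1c (88.6%) and Hist3h2a (96.7%) have mostly their own sequence.

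The kept cells (200 or more genes, below 5% mitochondrial UMIs) numbered 1601 to 6389 a library, with 9394957 to 61830293 unique molecular identifiers (UMIs) in all and medians of 4396 to 16090 UMIs a cell. No doublet caller was run, and any 2 libraries shared 1 to 8 cell barcodes. Gata3, a transcription factor that ILC2s require, was present in every library at 189 to 899 CPM (UMIs of a gene per 1000000 UMIs of the cells summed), and Il1rl1, which encodes the sorted marker ST2, at 46.7 to 791 CPM. The ta-non-activated library of week 3 stood apart, with 738 of its 1601 cells holding UMIs of both Cd3d and Cd3e, subunits of the T cell receptor complex, against 11 to 377 cells in the others. It also held Rag1, which rearranges receptor genes in developing lymphocytes, at 63.9 CPM, and the pre-T cell receptor gene Ptcra at 92.2 CPM. Rag1 had no UMI in the other 4 libraries and Ptcra was at 0.097 to 0.767 CPM there. The main values of this library are therefore also given without these cells. The cells left still held Rag1 and Ptcra, so values without the cells with Cd3d and Cd3e need not be those of ILC2s alone. Intervals below are exact 95% intervals and cover counting error only.

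UMIs of the histone genes summed to 339.7 CPM (95% interval 333 to 346, 11006 UMIs) in the naïve library. The ta-non-activated libraries held 434 CPM (427 to 442) at week 2 and 2826 CPM (2792 to 2860.0) at week 3. The ta-activated libraries held 631 CPM (625 to 638) at week 2 and 1106 CPM (1098 to 1115) at week 3. The naïve library was thus lowest and the ta-non-activated library of week 3 highest, and the ta-activated libraries lay between the 2 ta-non-activated ones. The group means were 869 ± 336 CPM (SD, n = 2) for ta-activated and 1630.1 ± 1691 CPM (SD, n = 2) for ta-non-activated ILC2s, and the groups overlapped. Without the cells that held both Cd3d and Cd3e, the ta-non-activated library of week 3 held 1184.5 CPM and its group mean was 809.6 ± 530.3 CPM (SD, n = 2). The naïve library had been counted with another version of Cell Ranger. Relative to the other libraries, the median log2 difference in it was -0.26 to -0.66 for genes without an intron (112 to 117 genes) and 0.59 to 1.10 for genes with at least 20000 bases of introns, and the part of this in its low histone level was not tested.

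**Figure D1:**
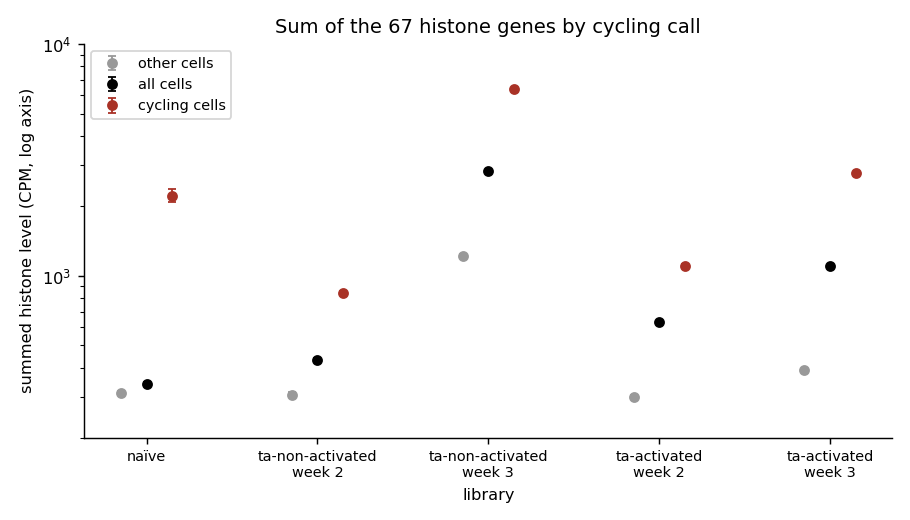
Summed level of the 67 histone genes (CPM, log axis) in each library, for all kept cells, cycling cells and other cells, with exact 95% Poisson intervals of the counts. Cycling cells lie above other cells in each of the 5 libraries, and the ta-non-activated library of week 3 is highest in all 3 sets of cells.

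Of the 67 members, 60 had a UMI in every library, 5 in some of them, and Hist1h2ba and Hist1h2aa, a pair of testis histone genes, in none. A small number of genes carried the sum, and not the same ones in each library. In the naïve library the linker histone gene Hist1h1c made 33.6% of all histone UMIs and Hist1h2bc, an H2B gene, 19.6%, so these 2 genes exceeded 50%. In the tumour libraries 4 to 6 members were needed to reach 50%, led by the linker histone gene Hist1h1e at week 2 of the ta-non-activated group (15.7%), Hist1h1b at week 2 of the ta-activated group (17.3%) and the H2A gene Hist1h2ap in both week 3 libraries (22.6% ta-non-activated, or 16.9% without the cells with Cd3d and Cd3e, and 15.1% ta-activated). Each UMI stands for 1 captured transcript end whatever the transcript's length, so these shares rank captured ends and not whole transcripts.

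Linker histone genes took the largest share by class in 4 libraries, with 43.9% of histone UMIs for naïve ILC2s, 39.4% and 41.7% at week 2 (ta-non-activated, then ta-activated), and 38.5% in the ta-activated library of week 3. In the ta-non-activated library of week 3 they took 22.8%, and H2A genes led with 44.0%. These shares were 29.0% and 36.2% without the cells with Cd3d and Cd3e. H2A genes took 11% of histone UMIs for naïve ILC2s, 13.5% and 24.4% at week 2 (ta-non-activated, then ta-activated) and 29.2% in the ta-activated library of week 3. H3 genes were the smallest class in every library (3.9% to 10.3%). Members share sequence with their copies to different degrees, and the part of this in the shares by class was not tested.

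**Figure D2:**
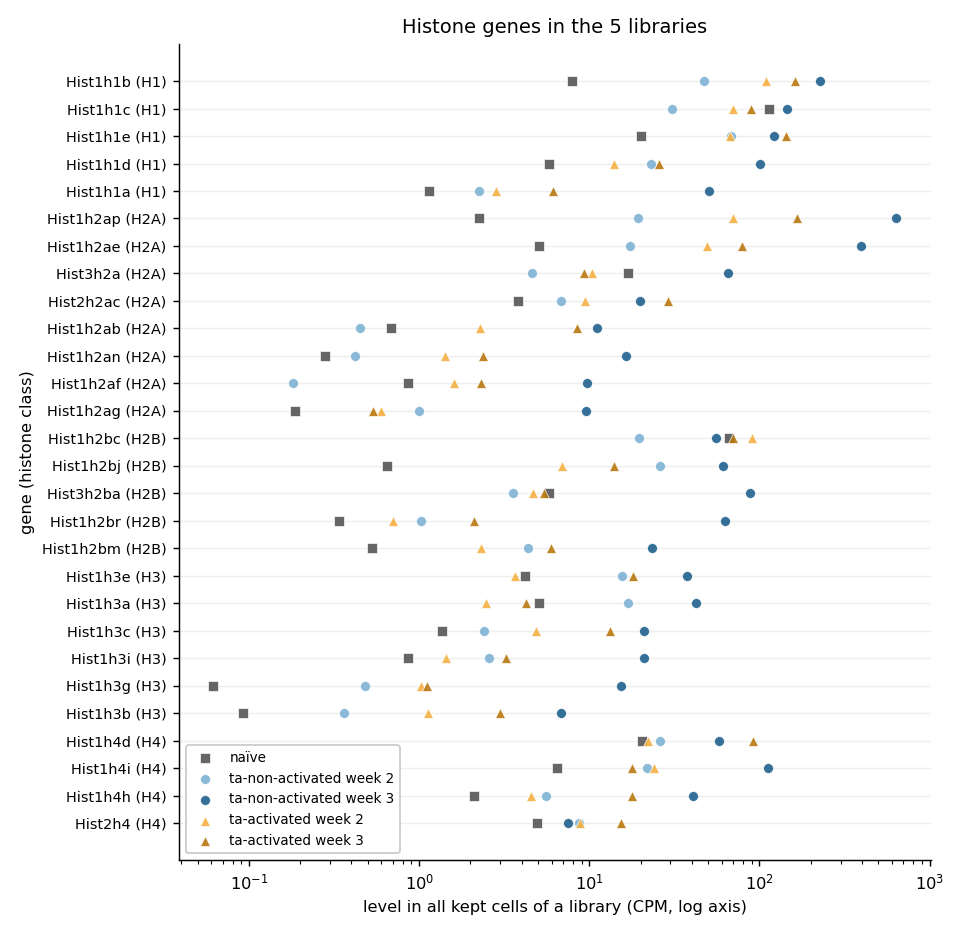
Level of the 28 named histone genes in all kept cells (CPM, log axis), with 1 point per library, ordered by histone class. The naïve library is lowest for genes such as Hist1h1b (7.87 CPM) and Hist1h2ap (2.25 CPM), and lies among the others for Hist1h1c (114 CPM) and Hist1h2bc (66.5 CPM).

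Hist1h1b, a linker histone gene that is active in dividing cells, had 7.87 CPM in the naïve library, 47.0 and 227 CPM in the ta-non-activated pair (week 2, then week 3) and 109 and 161 CPM in the ta-activated libraries. Hist1h2ap had 2.25 CPM in the naïve library, 19.4 and 639 CPM in the ta-non-activated pair and 69.5 and 167 CPM in the ta-activated libraries. Hist1h2ae, another H2A gene, had 5.06 CPM in the naïve library, 17.3 and 393 CPM in the ta-non-activated pair and 49.0 and 78.8 CPM in the ta-activated libraries. For these 3 genes the naïve library was lowest, the ta-non-activated library of week 3 highest, and the ta-activated libraries lay between the 2 ta-non-activated ones. Without the cells with Cd3d and Cd3e, the ta-non-activated library of week 3 held 199.7 CPM of Hist1h2ap and 133 CPM of Hist1h2ae and stayed highest. It then held 64.8 CPM of Hist1h1b, below both ta-activated libraries, so for this gene the order rested on those cells.

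Hist1h1c followed another order, with 114 CPM in the naïve library, 30.5 and 145 CPM in the ta-non-activated pair and 70.1 and 88.8 CPM in the ta-activated libraries. Hist1h2bc had 66.5 CPM in the naïve library, 19.7 and 55.6 CPM in the ta-non-activated pair and 90.6 and 70.0 CPM in the ta-activated libraries. The naïve library, lowest for the replication-linked H1 and H2A genes above, was second highest for Hist1h1c and behind both ta-activated libraries for Hist1h2bc. Hist1h4d, the H4 gene with the highest mean level, had 20.5 CPM in the naïve library, 26.1 and 57.9 CPM in the ta-non-activated pair and 22.2 and 91.5 CPM in the ta-activated libraries. Its level was highest in the ta-activated library of week 3. Without the cells with Cd3d and Cd3e the ta-non-activated library of week 3 held 145.0 CPM of Hist1h1c, 50.01 CPM of Hist1h2bc and 30.2 CPM of Hist1h4d, and the order of the libraries was the same for these 3 genes.

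The other genes of the list spanned a wide range. Among H3 genes, Hist1h3e (mean 15.9 CPM over the libraries) and Hist1h3a (14.2 CPM) were highest, and both had their highest level in the ta-non-activated library of week 3 (37.7 and 42.3 CPM). These levels were 15.7 and 18.6 CPM without the cells with Cd3d and Cd3e, and that of Hist1h3e was then below the ta-activated library of week 3 (18.2 CPM). Among H2B genes after Hist1h2bc, Hist1h2bj (mean 21.7 CPM) and Hist3h2ba (21.4 CPM) were next, the latter at 87.5 CPM in the ta-non-activated library of week 3 and at 3.55 to 5.77 CPM in the other 4. Hist3h2a, an H2A gene beside it, showed the same library at the top with 65.7 CPM against 4.63 to 16.9 CPM elsewhere. The library still held 35.9 CPM of Hist3h2ba and 37.4 CPM of Hist3h2a without the cells with Cd3d and Cd3e. In that library both genes were higher in the noncycling cells with Cd3d and Cd3e (133 CPM for Hist3h2ba, 103 CPM for Hist3h2a) than in the noncycling cells without them (34.4 and 36.8 CPM).

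Cells were next divided by a cycling call that uses no histone gene: a cell was called cycling when it held UMIs of at least 4 of the 6 genes Pcna, Mcm5, Rrm2, Mki67, Top2a and Cdk1, which serve DNA replication and mitosis. This held for 32 of 6389 naïve cells (0.501%, 95% interval 0.343 to 0.706), 13.7% and 10.7% of the ta-non-activated cells (week 2, then week 3) and 23.8% and 17.3% of the ta-activated cells. In the ta-non-activated library of week 3, 153 of the 171 cycling cells held Cd3d and Cd3e, and without cells that held both genes 18 of 863 cells were cycling (2.09%, 95% interval 1.24 to 3.28). Cycling cells were deeper than the other cells of their library, with median UMIs of 13399 against 4509 in the naïve library, 29086 against 14538 and 17201 against 3997 in the ta-non-activated pair, and 26428 against 10783 and 23334 against 11182 in the ta-activated libraries.

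The summed histone level was higher in cycling than in other cells in 5 of 5 libraries. It was 2216 against 313 CPM in the naïve library, 842 against 306 CPM and 6392 against 1213 CPM in the ta-non-activated pair, and 1104 against 300.04 CPM and 2775.5 against 391 CPM in the ta-activated pair. The log2 ratio averaged 2.28 ± 0.60 (SD, n = 5), and the exact sign-flip permutation test over the 5 libraries gave a two-sided p = 0.0625, the smallest that 5 libraries allow. Outside cycling cells 4 libraries lay between 300.04 and 391 CPM, and the ta-non-activated library of week 3 stood apart at 1213 CPM. In that library the noncycling cells with Cd3d and Cd3e held 1612 CPM (1571 to 1655, 585 cells) and those without held 732 CPM (701 to 763, 845 cells).

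Cycling cells carried most histone UMIs in 3 of the 4 tumour libraries: 72.1% and 75.3% in the ta-activated pair (week 2, then week 3), 70.4% in the ta-non-activated library of week 3 and 46.3% in the ta-non-activated library of week 2. Without the cells with Cd3d and Cd3e the share in the ta-non-activated library of week 3 was 43.0% (41.4 to 44.6), so that most histone UMIs lay in cycling cells in the 2 ta-activated libraries and in neither ta-non-activated one. That share rested on 18 cycling cells, in which Il1rl1 was at 8.10 CPM and Rag1 at 20.2 CPM, so it need not be a value of ILC2s. Cycling cells of the naïve library carried 9.18% (8.64 to 9.73). Over the libraries the mean was 54.7 ± 27.9% (SD, n = 5). Of all UMIs, whatever the gene, cycling cells held 1.41% in the naïve library and 23.9% and 31.1% in the ta-non-activated pair. They held 41.2% and 30.005% of all UMIs in the ta-activated pair. The histone share was above the share of all UMIs in every library. The share of all UMIs also differed between libraries, so the histone shares alone do not compare the groups. Depth bears on this call, since a deeper cell more often shows 4 of the 6 genes. When each cell was first thinned to 2000 UMIs the same call found fewer cycling cells, which carried 14.1 ± 9.09% of histone UMIs (SD, n = 5).

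Ordered by the number of call genes seen in a cell, the level was highest in cells with all 6 in every library. In the ta-activated library of week 3 it was 425, 384, 353 and 394 CPM in cells with 0, 1, 2 and 3 of the 6 genes, and 1440.1, 2699.6 and 3115 CPM with 4, 5 and 6. In the ta-non-activated library of week 2 it was 294 to 332 CPM in cells with 0 to 4 genes, then 641 CPM with 5 and 1191 CPM with 6. The ta-activated library of week 2 was at 259.7 CPM with 2 genes and 498 CPM with 3, and reached 1198 CPM with 6. In the ta-non-activated library of week 3 it was 1045 CPM with 0 genes, 1452 to 1480.1 CPM with 1 to 3, and 7789 CPM with 6. Without its cells with Cd3d and Cd3e it was 548 CPM with 0 genes and 8987 CPM with 6. The naïve library had 125 cells with 2 genes (283 CPM) and 12 cells with 6 (3338.5 CPM).

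**Figure D3:**
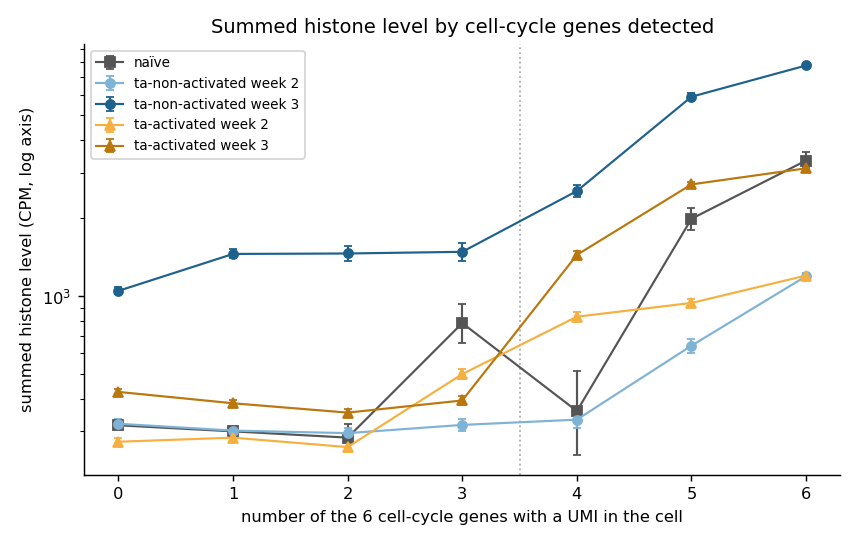
Summed histone level (CPM, log axis) of cells by the number of the 6 cell-cycle genes with a UMI, with 1 line per library and exact 95% Poisson intervals. The dotted line marks the limit of the cycling call, and the week 3 ta-activated line goes from 394 CPM at 3 genes to 1440.1 CPM at 4.

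Gene by gene, counts summed per library and call were tested between cycling and other cells by edgeR's quasi-likelihood test, with the library as a block and Benjamini-Hochberg adjustment over all 13205 genes tested. Of the 60 members tested, 49 were higher in cycling cells, 1 was lower and 10 did not pass the threshold of 0.05. Of all genes tested, 8.47% were higher and 7.27% lower. The median log2 change was 2.52 over the members and -0.12 over all genes tested. In 43 of the 49, the level was higher in cycling cells in 5 of 5 libraries. The 49 were called on these same libraries, so this count only describes them. By class, 4 of 5 H1 genes tested were higher, 12 of 14 H2A genes, 13 of 16 H2B genes, 10 of 12 H3 genes and 10 of 13 H4 genes. By location, 45 of 48 Hist1 members tested were higher, 4 of 9 Hist2 members, and none of the 2 Hist3 members or the single Hist4 member.

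**Figure D4:**
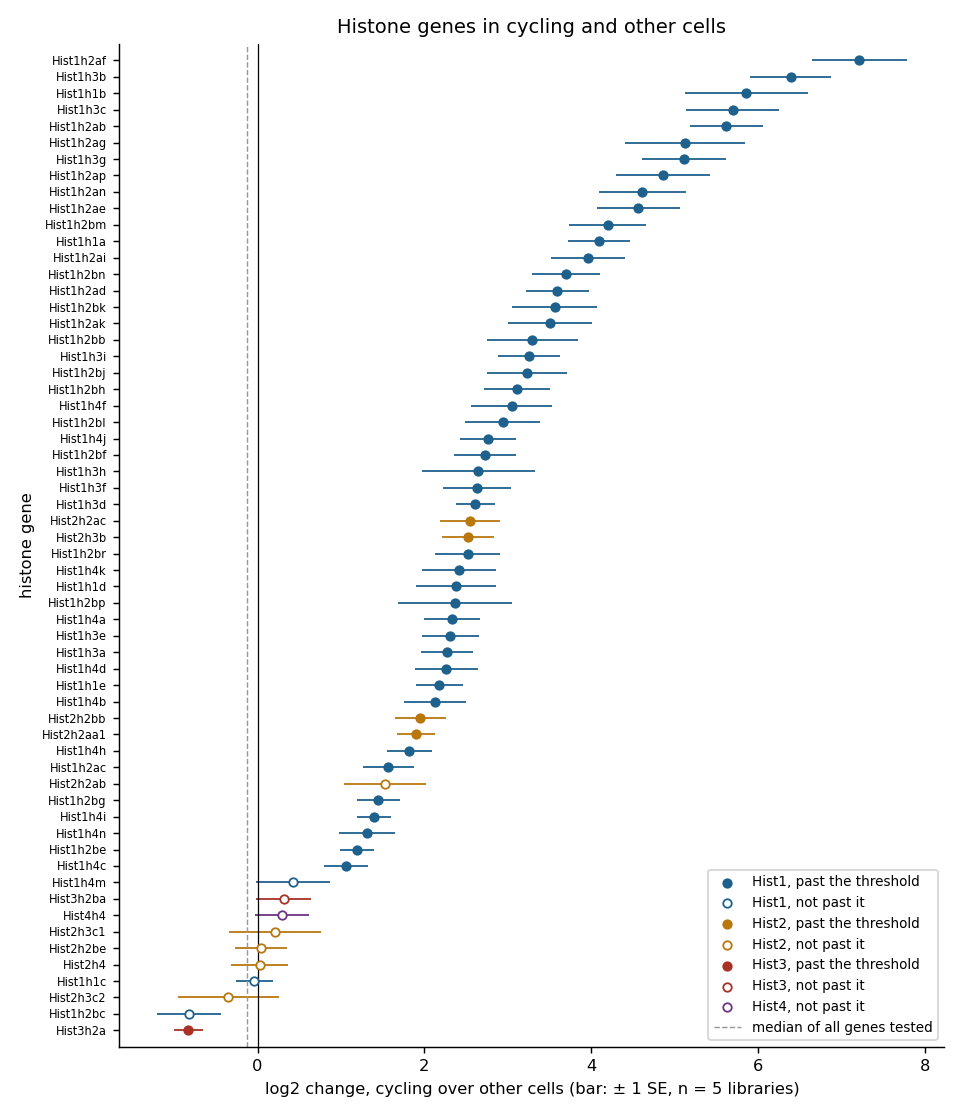
Log2 change between cycling and other cells of the 60 histone genes tested, with bars of 1 SE (n = 5 libraries), filled points for genes past the threshold and a dashed line at the median of all genes tested (-0.12). Of the points, 49 are past it to the right, and Hist3h2a is past it to the left at -0.83.

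The 12 members with the largest changes were H2A, H3, H1 and H2B genes of the chromosome 13 cluster. Hist1h2af had 57.0 CPM in cycling against 0.063 CPM in other naïve cells, and it had no UMI in the other cells of either ta-non-activated library. Its log2 change was 7.21 ± 0.57 (SE, adjusted p = 0.000115, edgeR with Benjamini-Hochberg adjustment). The H3 gene Hist1h3b changed by 6.39 ± 0.49, with 6.58 CPM in cycling naïve cells and no UMI in the others. Both are genes of low level, so a fitted change of this size depends on very few UMIs outside cycling cells.

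Among the abundant members Hist1h1b showed the largest change. It had 505 CPM in cycling and 0.783 CPM in other naïve cells, 183 against 4.23 CPM and 591 against 62.8 CPM in the ta-non-activated pair (week 2, then week 3), and 259 against 3.88 CPM and 524 against 5.82 CPM in the ta-activated libraries. Cycling cells were higher in every library, with a log2 change of 5.86 ± 0.74 (SE, adjusted p = 0.00135, edgeR with Benjamini-Hochberg adjustment).

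Hist1h2ap had 118 CPM in cycling and 0.595 CPM in other naïve cells, 63.6 against 5.58 CPM and 1694 against 162 CPM in the ta-non-activated pair, and 163 against 3.91 CPM and 535 against 9.40 CPM in the ta-activated libraries. Its log2 change was 4.86 ± 0.57 (SE, adjusted p = 0.000809, edgeR with Benjamini-Hochberg adjustment), and that of Hist1h2ae 4.57 ± 0.50 (adjusted p = 0.000559). The H2A genes Hist1h2ab, Hist1h2ag and Hist1h2an, the H3 genes Hist1h3c and Hist1h3g, the H2B gene Hist1h2bm and the linker histone gene Hist1h1a complete the 12 members with the largest changes, at 4.09 to 5.70 on the log2 scale.

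Abundant members with smaller changes included the linker histone genes Hist1h1d (log2 change 2.38 ± 0.49 SE, adjusted p = 0.0148 in the edgeR test) and Hist1h1e (2.18 ± 0.28, adjusted p = 0.0016). The H4 genes Hist1h4d, Hist1h4h and Hist1h4i changed by 2.26, 1.82 and 1.40, the H3 genes Hist1h3i, Hist1h3e and Hist1h3a by 3.25, 2.31 and 2.27, and the H2B genes Hist1h2bj and Hist1h2br by 3.23 and 2.52. Each of these 10 genes was higher in cycling cells in 5 of 5 libraries. Hist1h1e kept a level of 16.9 to 67.5 CPM outside cycling cells, against 0.783 to 62.8 CPM for Hist1h1b.

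Hist1h1c did not pass the threshold, at -0.04 ± 0.22 on the log2 scale (SE, adjusted p = 0.923, edgeR with Benjamini-Hochberg adjustment). It had 98.7 CPM in cycling and 114 CPM in other naïve cells, 28.0 against 31.2 CPM and 110.4 against 160.3 CPM in the ta-non-activated pair, and 76.6 against 65.5 CPM and 140.2 against 66.8 CPM in the ta-activated libraries. It was higher in cycling cells in both ta-activated libraries and lower in the other 3. Hist1h2bc had 48.3 CPM in cycling and 66.8 CPM in other naïve cells, 7.05 against 23.7 CPM and 87.9 against 41 CPM in the ta-non-activated pair, and 45.6 against 122 CPM and 46.8 against 80.0 CPM in the ta-activated libraries. It was lower in cycling cells in 4 libraries and higher in the ta-non-activated library of week 3, with a log2 change of -0.82 ± 0.39 (SE, adjusted p = 0.17 in the edgeR test). Without that library its change was -1.30 (adjusted p = 0.00195), and without the cells with Cd3d and Cd3e it was -1.18 (adjusted p = 0.0076).

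Hist3h2a was the single member lower in cycling cells, with 8.78 against 17.0 CPM in the naïve library, 2.01 against 5.46 CPM and 48.9 against 73.3 CPM in the ta-non-activated pair, and 8.38 against 11.7 CPM and 6.68 against 10.4 CPM in the ta-activated libraries. It was lower in 5 of 5 libraries, with a log2 change of -0.83 ± 0.18 (SE, adjusted p = 0.0167, edgeR with Benjamini-Hochberg adjustment). The call was lost without the ta-activated library of week 2 (adjusted p = 0.0679) and without the week 3 one (adjusted p = 0.0721). It was also lost without the 5% of cells with the most UMIs (adjusted p = 0.0553) and without the library block (adjusted p = 0.943). When cycling was called after thinning each cell to 2000 UMIs, the change was -0.09 (adjusted p = 0.776 in the edgeR test). Hist3h2ba beside it had a log2 change of 0.31 ± 0.33 and the H4 gene Hist2h4 of 0.03 ± 0.34, neither past the threshold. The 6 further members that did not pass it, named after their values were seen, were Hist2h2ab (1.53), Hist1h4m (0.42), Hist4h4 (0.30), Hist2h3c1 (0.21), Hist2h2be (0.04) and Hist2h3c2 (-0.35).

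The calls were set beside the annotated ends of the members. Of the 15 members tested with a poly(A) signal (AATAAA or ATTAAA) in the last 50 bases of a transcript, 8 were higher in cycling cells and 7 were not, the latter being Hist1h1c, Hist3h2a, Hist3h2ba, Hist2h4, Hist2h2be, Hist2h3c1 and Hist4h4. Of the 45 tested without one, 41 were higher and 4 were not. Among these 45 are 9 members annotated with their coding part only, which could not show a signal, and all 9 were higher. With a stem-loop in the transcript 26 of 33 members tested were higher, and without one 23 of 27. Among members with a stem-loop, 14 of the 15 tested whose transcript ended within 50 bases of it were higher, as Hist1h2ap was. Of the 22 that went on for at most 500 bases, these 15 included, 19 were higher. Of the 11 that went on for more than 500 bases, as Hist3h2a does, 7 were higher. Hist1h2bc, 1 of the 4 exceptions without a signal, is annotated over 23684199 to 23692908 of chromosome 13 with a transcript of 1156 bases, so its transcript is spliced and has no stem-loop. Annotated ends need not be those used in these cells, and these counts carry no test.

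Grouped by how they behaved, the 49 members higher in cycling cells made 37.2% of histone UMIs for naïve ILC2s, 82.8% and 85.7% in the ta-non-activated pair (week 2, then week 3) and 69.4% and 81.9% in the ta-activated libraries. The members were grouped on these same libraries, so the shares describe and do not test them. The share in the ta-non-activated library of week 3 was 74.7% without the cells with Cd3d and Cd3e. In cells thinned to 2000 UMIs, a UMI of Hist1h1b, Hist1h2ap or Hist1h2ae was seen in 16 of 32 cycling and 0.458% of other naïve cells, 24.4% and 3.01% at week 2 and 88.3% and 28.6% at week 3 of the ta-non-activated group, and 43.8% and 1.92% at week 2 and 61.8% and 3.86% at week 3 of the ta-activated group. The shares at week 3 of the ta-non-activated group were 88.9% of cycling and 10.9% of other cells without the cells with Cd3d and Cd3e. A UMI of Hist1h1c or Hist1h2bc was seen in 12.5% of cycling and 23.2% of other naïve cells, 6.80% and 9.88% and 33.9% and 27.4% in the ta-non-activated pair, and 13.8% and 19.6% and 24.4% and 22.8% in the ta-activated libraries. Without the cells with Cd3d and Cd3e the week 3 ta-non-activated shares were 55.6% of cycling (18 cells) and 26.0% of other cells. Before thinning the first set was seen in 56.3% of cycling and 1.34% of other naïve cells, at median depths of 13399 and 4595 UMIs, and in 68.4 to 98.8% of cycling and 8.53 to 44.2% of other cells of the tumour libraries. The second set was then seen in 56.3 to 82.5% of cycling and 38.8 to 61.9% of other cells. Cells with fewer than 2000 UMIs were left out of these shares, which concerned 242 naïve, 14 and 106 ta-non-activated, and 73 and 103 ta-activated noncycling cells and 5 cycling cells.

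Within cycling cells, levels were compared between cells rich in S phase genes and cells rich in G2 and M phase genes, by the share of each cell's UMIs of the S list among those of both lists (above 0.6, S; below 0.4, G2/M). Such a class is a range of a score and not a cell type, and it does not show that a cell was copying its DNA. In each library 1 to 56 cells lay within 0.05 of the upper limit and 3 to 71 within 0.05 of the lower. In the naïve library the summed histone level was 1208 CPM in 17 S cells and 3574 CPM in 10 G2/M cells. It was 501 and 2412 CPM in the ta-non-activated library of week 2 (202 and 27 cells) and 5304 and 9412 CPM in the week 3 one (116 and 35 cells). In the ta-activated libraries it was 469 and 1427 CPM at week 2 (235 and 345 cells) and 993 and 3781 CPM at week 3 (197 and 359 cells). The G2/M value was above the S value in 5 of 5 libraries, and the cells between had values between them. Without the cells with Cd3d and Cd3e the ta-non-activated library of week 3 had 12 S cells at 6011 CPM (5643 to 6397) and 5 G2/M cells at 7824 CPM (7209 to 8478), and the 1 cell between lay below both at 5492 CPM.

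**Figure D5:**
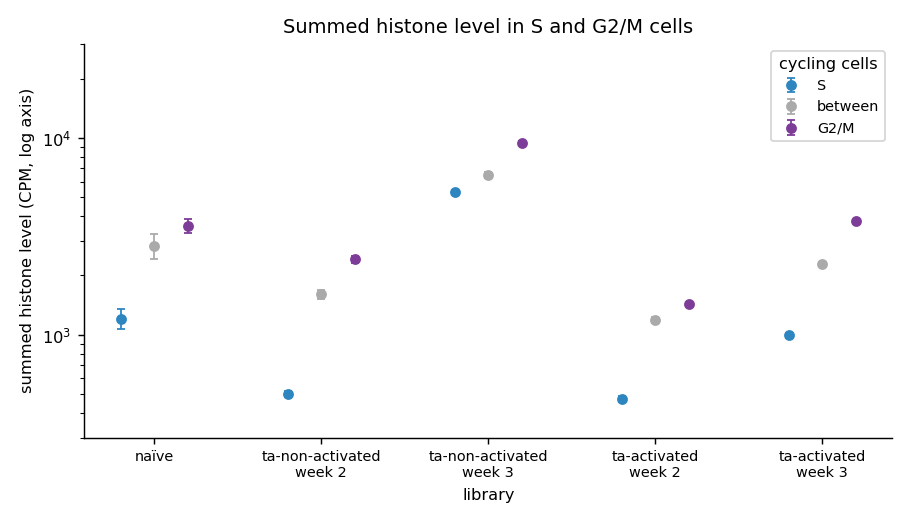
Summed histone level (CPM, log axis) of cycling cells by library, in S cells, cells between and G2/M cells, with exact 95% Poisson intervals. In each library the S value is lowest and the G2/M value highest, from 993 to 3781 CPM in the ta-activated library of week 3.

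Of the 49 members with at least 100 UMIs in these cells, 45 were higher in G2/M cells in 4 of 4 tumour libraries. The same count was not made over all genes, so it does not set the members apart from other genes. With the cells with Cd3d and Cd3e left out, 5 G2/M cells remained in the ta-non-activated library of week 3, where 42 of the 67 members were higher and 16 lower in G2/M cells. Hist1h1b had 192 CPM in S and 693 CPM in G2/M cells of the ta-activated library of week 3, and Hist1h2ap had 146 and 754 CPM there. The exceptions, named after their values were seen, were Hist1h3a and Hist2h4 (higher in G2/M in 3 libraries) and Hist1h2bc and Hist1h4a (in 2). Slbp, whose protein binds the stem-loop, went the other way, with 188 CPM in S and 147 CPM in G2/M cells of the ta-activated library of week 3, 566 and 293 CPM in the ta-non-activated library of week 3 (478 and 276 CPM without the cells with Cd3d and Cd3e), and 301 and 102 CPM in the naïve library. H2afz, a replacement H2A made outside S phase too, had 1115 and 2183 CPM in S and G2/M cells of the ta-activated library of week 3. These comparisons have no test, since the classes divide the same cells by genes that change with them.

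Many, but not all, of the 18 H2A and 18 H2B members are arranged as pairs that start from a shared region in opposite directions. In all, 12 such pairs were found, with starts 176 to 306 bases apart. Both genes had UMIs in 11 pairs. Both passed the filter in 9, and in 7 of these both genes were higher in cycling cells. Levels within a pair could lie far apart: Hist1h2ap had a mean of 179.5 CPM over the libraries and its partner Hist1h2br 13.3 CPM, at log2 changes of 4.86 and 2.52. In the other two pairs only the H2A gene was higher, and these were named after their values were seen. Hist1h2ac (9.0 CPM, log2 change 1.57) shares its region with Hist1h2bc (60.5 CPM, -0.82), and Hist2h2ac (13.8 CPM, 2.55) with Hist2h2be (1.94 CPM, 0.04).

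Promoters were available from RefSeq for 62 members, as 250 bases before to 50 after the start on build GRCm38.p6. The letters CCAAT, read on both strands, were found in 85.5% of them against 41.1% of all 27025 genes of the table. They were in 100% of the H1, H2A, H2B and H3 members and in 25.0% of the H4 members. TATAAA was found in 56.5% of members against 15.7% of all genes. The octamer ATTTGCAT was found in 22.6% against 1.97%, in 7 H2A and 7 H2B members and in no H1, H3 or H4 member. Members without a promoter sequence are left out of the next shares. Among the 47 left that were higher in cycling cells 85.1% held CCAAT, 61.7% TATAAA and 21.3% the octamer. Among the 8 left that were tested and not higher 75.0%, 37.5% and 12.5% did. A match is a description and no binding site.
The promoters below belong to the most abundant H2A member, to a linker histone gene that was higher in cycling cells and one that did not pass, and to the region shared by Hist1h2ac and Hist1h2bc, with motifs in capitals on either strand.
Hist1h2ap: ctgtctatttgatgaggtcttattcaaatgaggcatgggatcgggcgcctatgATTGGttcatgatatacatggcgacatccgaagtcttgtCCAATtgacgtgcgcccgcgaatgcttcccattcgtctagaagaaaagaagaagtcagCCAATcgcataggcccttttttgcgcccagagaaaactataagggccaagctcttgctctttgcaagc
Hist1h1b: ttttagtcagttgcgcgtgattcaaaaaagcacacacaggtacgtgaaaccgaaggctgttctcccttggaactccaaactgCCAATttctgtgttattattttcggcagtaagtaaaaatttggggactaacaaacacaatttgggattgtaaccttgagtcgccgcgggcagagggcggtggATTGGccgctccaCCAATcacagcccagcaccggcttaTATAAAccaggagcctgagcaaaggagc
Hist1h1c: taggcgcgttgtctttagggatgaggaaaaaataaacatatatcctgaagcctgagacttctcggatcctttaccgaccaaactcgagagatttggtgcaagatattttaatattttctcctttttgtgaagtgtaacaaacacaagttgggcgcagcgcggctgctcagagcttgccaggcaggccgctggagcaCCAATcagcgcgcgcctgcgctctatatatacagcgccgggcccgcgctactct
Hist1h2ac: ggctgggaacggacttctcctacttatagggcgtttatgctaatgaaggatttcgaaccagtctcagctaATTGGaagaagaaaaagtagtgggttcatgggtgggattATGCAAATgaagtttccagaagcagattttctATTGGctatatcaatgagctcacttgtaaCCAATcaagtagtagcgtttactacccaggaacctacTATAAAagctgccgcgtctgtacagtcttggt
They lie on GRCm38.p6 at chr13:21833508-21833725 (minus strand), chr13:21780626-21780875 (minus), chr13:23738557-23738806 (plus) and chr13:23683960-23684198 (minus), with the start of the gene at their right end. Hist1h2ap held CCAAT 3 times and Hist1h1c once. Hist1h1b held it 3 times with a TATAAA that began 28 bases before the start. The region of Hist1h2ac held 3 CCAAT matches, the octamer and a TATAAA that began 32 bases before its start.

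The 2 ta-activated libraries were set against the 2 ta-non-activated ones to ask whether histone levels differed between ILC2s cultured with cytokines and fresh ILC2s of tumour-bearing mice. No member passed the threshold in the edgeR quasi-likelihood test, either on all cells (60 members tested) or on cycling cells (58 tested). The share of all genes called was 0% of 12643 on all cells and 0% of 11298 on cycling cells, so the members' count equals the background. At an unadjusted p under 0.05 there were 2 higher and 9 lower members on all cells and 7 lower on cycling cells, among 2120 and 2074 of all genes. DESeq2 called 10 of 60 members on all cells and 5 of 58 on cycling cells, all lower. Over all genes it called 1041 of 12643 and 887 of 11298, in either direction. The median log2 change of the members was -1.67 on all cells and -1.66 on cycling cells, against -0.02 and 0.05 over all genes tested.

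These medians rested on the ta-non-activated library of week 3. Without it they were 0.28 on all cells and 0.72 on cycling cells. Without the ta-non-activated library of week 2 they were -2.45 on all cells and -2.60 on cycling cells. Either fit leaves 1 library in that group, whose spread is then taken from the other, so only the medians are given. Without the cells that held both Cd3d and Cd3e the medians were -0.43 and -0.84 and no member passed. Week by week, 26 members were higher and 35 lower in the ta-activated than in the ta-non-activated library at week 2 (61 with UMIs in both), and 7 were higher and 55 lower at week 3 (62 with UMIs in both). Without the cells with Cd3d and Cd3e the week 3 counts were 22 higher and 39 lower (61 with UMIs in both). Such counts by week were not made over all genes, so they have no background and carry no test.

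In the ta-non-activated library of week 3 the cycling cells with Cd3d and Cd3e (153 of 171) held 64.3% of all its histone UMIs and the other cells with both genes a further 21.5%. The level in cycling cells was 6377 CPM (6281 to 6473) with the 2 genes and 6558 CPM (6243 to 6885) without, with intervals that overlapped, whereas among noncycling cells it was higher with them. Rag1 was at 25.8 CPM in the cycling cells with Cd3d and Cd3e and at 20.2 CPM in the 18 without. Summed over the 9 T cell markers the library held 4492 CPM, against 249 to 914 CPM in the others, and all 9 had a UMI in it. Cd8b1 was at 22.8 CPM and Cd4 at 0.319 CPM there. Markers of B cells, NK cells or ILC1s, myeloid, mast, epithelial, endothelial and erythroid cells summed to 0 to 121 CPM a list over the 5 libraries. Cycling cells of that library had 1694 CPM of Hist1h2ap, 1073 CPM of Hist1h2ae and 591 CPM of Hist1h1b, against at most 535, 244 and 524 CPM in cycling cells of the other 4.

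Other genes of histone supply were set beside the members in the comparison of cycling with other cells. Of all 13205 genes tested there, 8.47% were higher and 7.27% lower in cycling cells. Replacement histones are not limited to S phase and can be placed in chromatin without replication. Of these 11 genes, 5 were higher in cycling cells and none lower. They were H2afz (log2 change 1.98), H2afv (1.06), H2afx (2.54), which marks DNA breaks when phosphorylated, the centromeric H3 gene Cenpa (3.16) and the linker gene H1fx (2.67). The H3.3 genes H3f3a (0.15) and H3f3b (-0.04) did not pass the threshold. Summed, the 11 genes held 4423 CPM in the naïve library, 5296 and 13400.0 CPM in the ta-non-activated pair (10167 CPM at week 3 without the cells with Cd3d and Cd3e) and 4765 and 4218 CPM in the ta-activated libraries.

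Of 14 genes of histone mRNA synthesis and 3′ end processing, 8 were higher in cycling cells and none lower. They included Slbp (log2 change 1.49), the coactivator Npat (0.66), Casp8ap2 (0.93) and Lsm11 (0.89) of the histone locus bodies, Zfp473 (1.89), the exonuclease Eri1 (1.19), which trims histone mRNA ends, and the cleavage factors Cstf2 (0.78) and Cpsf2 (0.54). Lsm10 (-0.09), Cpsf3 (0.05) and Sympk (0.18) did not pass the threshold. Of 16 histone chaperones and assembly factors, 13 were higher and none lower, led by Asf1b (3.81) and by the CAF-1 subunits Chaf1a (3.12) and Chaf1b (1.69). Hira (0.44) and Daxx (-0.19), which place H3.3, and Npm1 (0.42) did not pass. Of the S phase list, which like the next holds none of the 6 call genes, 20 of 20 genes were higher, with a median log2 change of 2.67, and of the G2 and M phase list 16 of 16, with a median of 5.23. Of 8 ILC2 markers 4 were lower in cycling cells (Il1rl1, Gata3, Areg and Il7r) and none higher, and of 8 T cell markers tested Cd3e was lower (-1.2). None of the genes of these lists passed the threshold between ta-activated and ta-non-activated ILC2s. Nor did any other gene, among 12643 tested on all cells and 11298 on cycling cells, so this equals the background.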

How the data were processed

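Sorted lung ILC2s were profiled cell by cell in 5 libraries made with 10x Genomics 3′ reagents (1 naïve, 2 ta-non-activated, 2 ta-activated). The matrices that the authors deposited hold UMI counts, whole numbers of molecules for each gene in each barcode, with no normalization. The submitters' processing notes name Cell Ranger 3.0.2 and Seurat 3. Among the matrix headers, that of naïve ILC2s gives Cell Ranger 6.0.0 and the other 4 give 3.0.2. The genome annotation used for counting is not given in the sources used here. A change of version can move the naïve values against the rest. Totals of the kept cells ran from 9394957 to 61830293 UMIs a library, and the intervals are exact (Poisson for levels, Clopper-Pearson for shares) at 95%.

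Kept cells had 200 or more genes and a mitochondrial share below 5%. Levels are UMIs of a gene per 1000000 UMIs (CPM) over the 27726 genes common to the 5 matrices. Counts were summed per library, or per library and cycling call, and tested with edgeR 4.0.16 (filterByExpr, TMM, quasi-likelihood test, Benjamini-Hochberg adjustment over all genes tested, threshold 0.05) in R 4.3.3. The scripts were tested on simulated data with known changes. Other values were computed with scipy 1.17.1, numpy 2.4.6, pandas 2.3.3 and matplotlib 3.10.9 under Python 3.11.15. Alternatives were DESeq2 1.42.0, all genes with at least 1 count, a replicate block, all 5 libraries in 1 fit, each library left out, a mitochondrial limit of 10%, cells without Cd3d and Cd3e, cells without the 5% with the most UMIs, other cycling calls, all deposited barcodes, all genes of each matrix as denominator and the sum without its 3 most abundant genes.

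Named genes were the 4 members with the highest mean level in each histone class, the 12 with the largest change in either direction among those past the threshold between cycling and other cells, members past it between the groups, and genes of the lists past it. Members and lists were chosen with earlier results of these data known. Positions and transcript ends came from GENCODE M21 (GRCm38), where all 67 members were found, and promoters from RefSeq (GRCm38.p6). The weeks are numbers shared by the 2 tumour groups, and whether libraries of a week came from the same mice is not given in the sources used here.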

Additional observations from a re-analysis of the deposited data

Results flagged for a closer look

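The change between ta-activated and ta-non-activated ILC2s had opposite signs at week 2 and week 3 for the summed histone level. The same held for 11 of the 28 named genes, whose exact intervals did not overlap between the groups in either week. These intervals cover counting error only. The rule was not applied to all genes, so this count has no background and sets the histone genes apart from no others. By sign alone, on the log2 scale over all cells, Hist3h2ba (0.40 and -4.01), Hist1h4i (0.13 and -2.65) and Hist1h1a (0.32 and -3.05) were opposite too. So were Hist1h2ab (2.33 and -0.40) and Hist1h1e (-0.01 and 0.25). Each week has 1 library a group, so the difference between the weeks was not tested. On the log2 scale the sum over all cells was 0.54 at week 2 and -1.35 at week 3, a difference of -1.89, and in cycling cells it was 0.39 and -1.20, a difference of -1.59. Values for all cells follow for the genes. Hist1h2ap differed by -3.77 between the weeks (1.84 and -1.93), Hist1h1b by -1.71 (1.21 and -0.50), Hist1h2ae by -3.82 (1.5 and -2.32) and Hist1h1c by -1.91 (1.2 and -0.70). Hist3h2a differed by -3.99, Hist1h3c by -1.68, Hist1h2an by -4.54, Hist1h3g by -4.87, Hist1h2af by -5.23 and Hist1h3b by -2.84, with week 2 above 0 and week 3 below 0 for each. Hist1h4d went the opposite way, at -0.23 and 0.66, a difference of 0.89. In the week 3 ta-non-activated library 738 of 1601 cells held both Cd3d and Cd3e, and the summed level there was 1184.5 CPM without them. Without such cells in any library the sum over all cells was 0.55 at week 2 and -0.10 at week 3, and over cycling cells 0.40 and -1.23. By sign alone, without the rule on intervals, 7 of the 11 genes stayed opposite, among them Hist1h2an at 1.75 and -0.26. Signs were no longer opposite for Hist1h1b (1.22 and 1.32), Hist1h3c (1.02 and 1.08), Hist1h2af (3.16 and 0.29) and Hist1h3b (1.66 and 1.25).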

How the results depend on the processing

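Of the 60 members tested, 50 were called between cycling and other cells, among 2078 of 13205 genes. With 1 library left out the count was 42 to 49, among 697 to 2288 genes called. Under the other alternatives it was 45 to 52 (58 to 65 members tested), among 1527 to 2958 genes called. The exception was the fit without the library block, with 6 of 58 members and 246 of 11536 genes. Between ta-activated and ta-non-activated ILC2s no member was called on all cells or on cycling cells with a replicate block for the week (0 and 0). This block pairs libraries by week number only, since whether libraries of a week came from the same mice is not given. The week differences of the groups correlated at -0.05 over 11205 genes, which cannot decide it with 1 library per group and week. With 1 library left out the counts were 0 to 25 on all cells and 0 to 27 on cycling cells, the highest without week 2 ta-non-activated ILC2s, and with DESeq2 they were 10 and 5. Each fit between the groups with 1 library left out leaves 1 library in a group, whose spread is then taken from the other. No call is therefore drawn from the counts of those fits. Without week 2 ta-non-activated ILC2s, genes outside the histone list were called as well. The other alternatives gave 0. The mean log2 ratio of the sum was 2.14 to 2.48 with 1 library left out and 1.69 to 2.44 otherwise. The share of histone UMIs in cycling cells was 49.5 to 66.0% with 1 library left out and 14.1% with cycling called after thinning, which finds fewer cycling cells. With 1 library left out the mean sum was 631 to 1106 CPM in ta-activated and 434 to 2826 CPM in ta-non-activated ILC2s. The naïve sum was 314 CPM without the 5% of cells with the most UMIs, against 339.7 CPM.

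Of the 28 named genes, Hist1h1c, near 0 in the comparison of cycling with other cells, changed sign to 0.09 without the naïve library, 0.05 without week 2 and 0.11 without week 3 ta-non-activated ILC2s, 0.10 without cells with Cd3d and Cd3e, 0.041 without the deepest cells, 0.0017 at 5 or more call genes and 0.26 after thinning. Hist2h4 changed sign to -0.027 with DESeq2, -0.039 with all genes, -0.28 without week 3 ta-non-activated ILC2s, -0.22 without cells with Cd3d and Cd3e and -0.053 at 3 or more call genes, and Hist3h2ba to -0.089 without week 3 ta-activated ILC2s. With 1 library left out, Hist1h1c ranged from -0.29 to 0.11 and Hist3h2ba from -0.089 to 0.62. Without the library block 18 named genes lost their call. Hist3h2a lost it under 4 alternatives and also after thinning, where its change was -0.09. Hist1h1d lost its call without the naïve library (adjusted p = 0.051 in the edgeR test). Hist1h2bc gained a call as lower under 3 alternatives, thinning among them. For the sign changes and the lost and gained calls the cause was not tested. Levels of a few UMIs, as in the 32 cycling naïve cells, limit what can be seen there.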
